A study of Mus musculus with 4 samples.

Results

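The 2 high switching subclones of the mouse hybridoma 36-65, H23 and H27, differed at least 2-fold at 41 of the 14454 probe sets that were bright in them. A bright probe set is one whose mean log2 intensity over the H23 and H27 arrays is at least 7, and an array of this kind carries 45037 probe sets that are not controls. The 41 probe sets were selected on the measured difference between H23 and H27, with 1 array for each subclone, so their differences are a description with no test and no error of their own. They are 0.284% of the bright probe sets: 24 (0.166%) were higher in H27 and 17 (0.118%) were higher in H23. Of the 41, 35 carry a single gene symbol in the platform annotation, 3 carry more than 1 and 3 carry none, and the single symbols name 32 genes. Between the low switching subclones L25 and L27, 52 of the same 14454 probe sets (0.36%) differed 2-fold. By this count, over probe sets chosen as bright in the high arrays, the low switching pair was at least as far apart. The median absolute difference over the same probe sets was instead larger in the high pair, 0.157 against 0.126.

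All 4 subclones came from 36-65, a hybridoma, that is, a fusion of a B lymphocyte with a myeloma cell that grows without limit and secretes antibody. They were grown in Dulbecco's medium with 10% fetal calf serum and 5% of the supplement NCTC 109, with no agent added to induce switching named in the labels. The labels describe H23 and H27 as switching isotype often and spontaneously in culture, and L25 and L27 as switching at low frequency. Each subclone is a single line, and nothing in the labels says that subclones of a class arose separately or that a culture was repeated. Class switching replaces the constant region of the antibody heavy chain by joining distant switch regions of the locus, and it needs the enzyme AID and the repair of DNA breaks. Subclones are grown from single cells of a line, and lines kept apart in culture can come to differ in the genes they express.

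The arrays had median intensities from 38.1 to 39.3, and the log2 values of H23 and H27 correlated at 0.987 over the bright probe sets, against 0.991 for L25 and L27. The median absolute difference was 0.157 between H23 and H27 and 0.126 between L25 and L27. Markers of antibody-secreting cells were at similar levels in both high switching subclones: Jchain was at 14.43 in H23 and 14.49 in H27, Irf4 at 12.66 and 12.65, Xbp1 at 12.45 and 12.71, and Prdm1 at 11.82 and 12.06. Cd79a was dim on every array, between 5.04 and 5.25, while its partner Cd79b was at 11.79 in H23 and 11.85 in H27. Of the marker lists for other cells, 3 of 13 T cell genes, 1 of 15 myeloid genes, 0 of 7 erythroid genes and 0 of 13 fibroblast genes were bright. Probe sets for the hybridization spikes, which are added to every sample, had a mean log2 intensity of 10.79 in H23 and 11.23 in H27, and all 18 were higher in H27. The values of these spikes on the low arrays are given beside the results they touch.

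Most differences were modest. The median size was 1.30 (log2) for the 24 members higher in H27 and 1.14 for the 17 higher in H23. Sizes under 1.5 made up 15 of the former and 14 of the latter, and 4 members higher in H27 and 1 higher in H23 differed by 4-fold or more. The threshold has no gap around it. Just inside it were Lgals1 (-1.01, as H27 minus H23), Pim2 (1.01), Lpxn (1.02), Nt5dc2 (-1.03) and Mras (-1.04), and just outside were Cotl1 (-0.999), Casp1 (0.996), Ltb (0.99), Pura (0.99) and Acot9 (-0.99). In 28 members both high arrays were at 7 or above. In the other 13 the dimmer of them lay under 7, down to 6.16, where intensity need not follow the amount of transcript.

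Cd74, the single member among 5 bright genes of the class II list, was among the largest differences in favour of H27. It encodes the invariant chain, which guides MHC class II molecules to the compartment where they take up peptide. The log2 intensity of Cd74 was 11.09 in L25, 10.79 in L27, 7.72 in H23 and 9.75 in H27, so it was 4.08-fold higher in H27 than in H23 and below both low arrays in each. The other bright genes of the class II list did not share the difference, with H27 minus H23 at -0.14 for H2-Ea, 0.01 for H2-DMa, 0.24 for Ctss (a protease that trims the invariant chain) and -0.34 for Ifi30. H2-Ea, a class II chain, was close to the lower limit for a bright probe set (7.14 in H23 and 6.997 in H27). The probe sets of the list for the chains H2-Aa, H2-Ab1 and H2-Eb1 lay below that limit. These values therefore do not show whether the class II chains differed as Cd74 did.

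Iglv1, a variable gene of the lambda light chain, gave the largest difference of all members, and its probe sets did not give 1 answer. One read 11.33 in L25, 10.99 in L27, 6.27 in H23 and 10.41 in H27, a 17.6-fold difference. A second read 9.55, 7.85, 7.67 and 9.43 in the same order, 3.41-fold higher in H27. Another, which was not a member, read 11.76, 11.30, 7.80 and 8.06 and differed by 0.26. On the first, H23 alone was low, whereas on the last both high subclones were low, so the size of the difference in lambda transcript depends on the probe set read. The first and second probe sets are of types that may match more than 1 transcript, and the last is not. Whether other transcripts contributed to the first and second was not tested. The heavy chain probe sets chosen for Ighm and Ighg3 differed by 0.02 and 0.05. The Igk probe set of the list, which was close to the lower limit for a bright probe set (6.84 in H23 and 7.67 in H27), differed by 0.83. The brightest kappa probe set, Igkv8-30, picked after its values were seen, was at 14.19 in L25, 14.23 in L27, 14.12 in H23 and 14.07 in H27, a difference of -0.05.

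Several surface proteins of lymphocytes were also higher in H27. Clec2i, a C-type lectin-related protein recognised by receptors of natural killer cells, was at 9.98 in L25, 8.65 in L27, 6.96 in H23 and 8.88 in H27, and its second probe set differed by 1.42 in the same direction. Cd52, a small glycoprotein held in the membrane by a lipid anchor, was at 11.94, 11.10, 11.13 and 12.36. Cd53, a leukocyte tetraspanin, was at 9.85, 9.91, 8.81 and 9.92. The patterns are unlike each other: H23 was the low array of the 4 for Clec2i and Cd53, while for Cd52 H23 lay with L27 and H27 with L25. The second Cd53 probe set was dim and differed by -0.04.

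Bnip3, a mitochondrial protein of cell death and mitophagy that is induced by low oxygen, was at 10.06 in L25, 10.76 in L27, 10.18 in H23 and 11.60 in H27. H27 was the highest of the 4 arrays, 2.69-fold above H23. Of 25 bright genes of the glycolysis and hypoxia list, 19 were higher in H27, with a median difference of 0.18 against -0.04 over all 8201 bright genes. Bnip3 was the only gene of the list past 2-fold. The others in order of size included Egln3 (0.72), a prolyl hydroxylase that senses oxygen, Ankrd37 (0.59) and Aldoc (0.52), an aldolase. Also among them were Pdk1 (0.46), a kinase that inhibits pyruvate dehydrogenase, and Vegfa (0.44). Of the 25, 6 were lower in H27, with the lowest at -0.19. Over the 28 measured genes of the list, summed intensity was 93568 in L25, 103044 in L27, 89211 in H23 and 103644 in H27. The promoter of Bnip3 is shown from RefSeq, assembly GRCm38.p6, chr7:138909457-138909756, minus strand, 250 bases before to 50 after the start. The letters searched were ACGTG and GCGTG, the core of the hypoxia response element, on both strands.
Bnip3: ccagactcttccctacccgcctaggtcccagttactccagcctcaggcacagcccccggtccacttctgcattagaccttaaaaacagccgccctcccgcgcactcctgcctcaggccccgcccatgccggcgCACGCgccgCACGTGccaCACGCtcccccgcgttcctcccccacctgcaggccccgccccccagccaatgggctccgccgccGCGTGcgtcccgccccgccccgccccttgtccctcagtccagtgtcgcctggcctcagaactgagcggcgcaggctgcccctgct
Capitals mark every match on either strand. The window holds 2 matches to ACGTG, 1 on each strand and overlapping as CACGTG, and 3 to GCGTG. Of 32851 RefSeq promoters of the same length, 19.6% hold ACGTG and 32.4% hold GCGTG on either strand, so such matches are common. Oxygen in the cultures is not given in the labels, and its part in these differences was not tested.

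Malat1, an abundant long noncoding RNA kept in the nucleus, was higher in H27 on 2 probe sets. They read 9.42 and 9.09 in H23 and 11.02 and 10.77 in H27, which are 3.02-fold and 3.20-fold differences. The low subclones differed as well, with 10.07 and 9.83 in L25 and 8.92 and 8.44 in L27. On these 2 probe sets H27 and L25, the arrays with the brighter hybridization spikes, were thus the higher array of each pair. The part of array handling in this difference was not tested. Of the 5 other Malat1 probe sets, 4 were higher in H27 and the range was from -0.13 to 0.96. Among those 4, L25 was above L27 on 1 (by 0.74) and below it on the other 3 (L25 minus L27 of -0.33, -0.10 and -0.07).

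The remaining genes higher in H27 include signalling proteins. Tiam2, which activates the small GTPase Rac, was at 7.54 in L25, 7.24 in L27, 6.78 in H23 and 8.30 in H27, and its other probe sets differed by 0.11 to 0.45. Camk2a, a subunit of calcium and calmodulin-dependent kinase II, was at 8.31, 8.08, 6.92 and 8.30, so H23 alone stood apart. All 5 other Camk2a probe sets were higher in H27, by 0.13 to 1.11. Pim2, a kinase that favours survival of lymphoid and myeloma cells, was at 11.33, 12.48, 10.82 and 11.83, and Lpxn, leupaxin, an adaptor of focal adhesions, at 8.56, 8.57, 7.54 and 8.56. For Lpxn, H27 and both low arrays were nearly level and H23 was lower.

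Transcription and RNA factors were few. Atf5, a transcription factor of the integrated stress response, was at 10.78 in L25, 10.30 in L27, 8.35 in H23 and 9.39 in H27, below the low arrays in both high subclones. The unfolded protein and stress response list, which does not hold Atf5, had a median difference of 0.03 over 28 bright genes. Ints12, a subunit of the Integrator complex that processes RNA, was at 7.28, 7.73, 6.89 and 8.0. Its other, brighter probe set was at 9.03, 9.19, 9.39 and 9.67 and differed by 0.28, with H23 above both low arrays. Zbtb44, a zinc finger protein, was at 8.67, 8.45, 8.69 and 9.73, and is the single member higher in H27 for which H27 alone lay at least 1 from the other 3 arrays. Its 2 other probe sets differed by -0.093 and -0.0040, so the difference rests on 1 probe set.

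The other named members higher in H27 were Cyp2c55, a cytochrome P450 (7.498 in H23 and 8.74 in H27), Tmem64, a membrane protein (6.41 and 7.72), Yipf6, a protein of the Golgi (7.23 and 8.36), and Gsdma, a gasdermin (8.25 and 9.36). Tmem64 and Yipf6 were higher in H27 on their other probe sets too, by 0.61 to 0.91 and by 0.29 to 0.47. A probe set shared by the zinc finger genes Rex2, Zfp980 and Zfp600 was at 11.003 in L25, 10.47 in L27, 6.52 in H23 and 8.99 in H27. A probe set with no symbol, 1428719_at, was at 13.07, 12.83, 9.39 and 12.40, which is an 8.06-fold difference with H23 far below the other 3. The other unnamed members, 1439305_at and 1456803_at, differed by 1.28 and 1.20.

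The members higher in H23 were led by Pipox, an oxidase of peroxisomes that acts on sarcosine and pipecolic acid. It was at 5.81 in L25, 5.40 in L27, 8.28 in H23 and 6.16 in H27, so H23 alone was bright. Lgals1, galectin-1, a secreted lectin that binds sugars on cell surfaces, was at 6.02, 5.56, 9.07 and 7.63 on 1 probe set and at 6.42, 6.01, 9.42 and 8.41 on another. Both high subclones were above both low ones on each, and H23 was 2.71-fold and 2.01-fold above H27. Lgals1 was placed in the actin cytoskeleton list, where Tmsb10, an actin-binding thymosin, was lower in H27 by 0.93 and Pfn2, a profilin, higher by 0.84, both short of the threshold.

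Members of the Ly6 family, small surface proteins with a lipid anchor, were higher in H23. Ly6e was at 11.99 in L25, 11.84 in L27, 12.84 in H23 and 11.16 in H27, with H23 the highest array and H27 the lowest. Ly6d, a marker of early B lineage commitment, was at 10.96, 9.67, 10.45 and 8.95. A probe set shared by Ly6c2 and Ly6c1 was at 12.02, 11.13, 10.62 and 9.37, and is 1 of 3 members higher in H23 for which H27 alone lay at least 1 from the rest. The second Ly6e probe set differed by -0.83. The low subclones were also apart by over 1 for Ly6d, with L25 above L27.

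Enzymes that act on glutathione were a further group, noticed after the values were seen. Gstk1, a glutathione transferase of mitochondria and peroxisomes, was at 7.76 in L25, 7.58 in L27, 8.71 in H23 and 7.29 in H27. Gsta4, which detoxifies products of lipid oxidation, was at 9.13, 9.92, 8.83 and 7.65, and Mgst3, a membrane-bound member, at 6.94, 7.22, 8.68 and 7.61. In Gstk1 and Mgst3 it was H23 that stood above the other arrays, in Gsta4 H27 that stood below them. The second Mgst3 probe set differed by -0.06. Other bright transferases did not all follow, with differences of -0.72 for Gstm5, -0.31 for Gstp3, -0.09 for Gstp1, 0.02 for Gstz1, 0.10 for Gstt2 and 0.22 for Gsto1. In the oxidative stress list, 9 of 16 bright genes were lower in H27, close to the share among all bright genes (4622 of 8201), and the median was -0.02. Hmox1 (-0.48), heme oxygenase, and Gsr (-0.45), glutathione reductase, were lower in H27, whereas the metallothioneins Mt2 (0.65) and Mt1 (0.34) and the cystine transporter Slc7a11 (0.43) were higher. Gsta4 was the only gene of the list past 2-fold.

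Other metabolic and transport genes were higher in H23. Tcn2, transcobalamin, which carries vitamin B12, was at 5.999 in L25, 6.75 in L27, 8.11 in H23 and 6.97 in H27. Cryl1, a dehydrogenase related to lens crystallin, was at 6.95, 7.50, 8.11 and 6.97, and Gdpd1, a lysophospholipase, at 7.11, 7.64, 8.94 and 7.89. On these probe sets H23 was the brightest of the 4 arrays. For Cryl1 this rests on 1 probe set: the 3 others differed by -0.43, -0.39 and -0.09, and the brightest of them read 8.04 in L25, 8.20 in L27, 7.92 in H23 and 7.49 in H27, with both high arrays below both low ones. The second Gdpd1 probe set differed by -0.85, whereas the 4 other Tcn2 probe sets ranged from -0.74 to 0.08. The value of 0.08 belongs to the brightest Tcn2 probe set, at 8.69 in L25, 8.64 in L27, 9.03 in H23 and 9.11 in H27. Nt5dc2, of the nucleotidase family, was at 7.48, 8.22, 8.93 and 7.89.

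The last genes higher in H23 act in signalling and in lysosomes. Mras, a small GTPase related to Ras, was at 11.04 in L25, 10.94 in L27, 10.93 in H23 and 9.89 in H27, so that H27 alone was lower, and its other probe set differed by -0.79. Laptm5, a lysosomal membrane protein of blood cells that lowers antigen receptors on the surface, was at 7.16, 7.19, 8.81 and 7.77. Its 4 other probe sets were all lower in H27, by between 0.01 and 0.62. Rgcc, a regulator of the cell cycle, was at 6.26, 6.70, 7.95 and 6.83, with its second probe set differing by -1.20.

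A probe set shared by the alpha globin genes Hba-a2 and Hba-a1 was at 4.71 in L25, 5.83 in L27, 7.59 in H23 and 6.45 in H27. The defining markers of red blood cells did not accompany it. Of 7 erythroid genes 0 were bright, their summed intensity was between 239 and 260 on the 4 arrays, and Alas2, the first enzyme of heme synthesis in red cells, was at 4.25 in H23 and 4.24 in H27. Another probe set, for Hba-a1 alone, was at 3.96 on both high arrays.

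The low arrays were not used to choose the members, and they show, member by member, which high subclone lay further from them. H23 alone lay at least 1 (log2) from each of the other 3 arrays, on 1 side of them, in 20 members. H27 alone did so in 4, Zbtb44, the Ly6c2 and Ly6c1 probe set, Gsta4 and Mras, and neither did in 17. Every bright probe set of this kind for H23 or H27 is a member by construction, so the counts over all 14454 are the same 20 and 4, against 17 for L25 and 5 for L27. H23 outnumbered H27 in both directions, with 11 against 1 among members higher in H27 and 9 against 3 among those higher in H23. H27 lay nearer than H23 to the range of the low arrays in 29 members and H23 in 12. Both distances use the same low arrays, so they are given side by side with no test.

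In 10 members both high arrays lay above both low arrays, in 10 both lay below, and in 21 the classes overlapped. The sum of the first counts, 20 of 41, is below the 63.3% of all bright probe sets in which both high arrays lie on 1 side of both low arrays. Choosing probe sets whose high arrays are far apart makes such overlap likelier, so nothing is read from the gap. Of the 10 members above the low arrays 9 were higher in H23, and of the 10 below them 7 were higher in H27. In these 16 members H23 was the further displaced of the high subclones, as in Lgals1 and Laptm5 upward and Cd74 and Atf5 downward.

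The comparison of high with low switching was tested with limma over all 45037 probe sets, of which 1618 (3.59%) passed an adjusted p of 0.05. Among the members 2 of 41 passed, both of them Lgals1, by 2.56 ± 0.44 (SE, log2, adjusted p = 0.040) and 2.70 ± 0.33 (limma adjusted p = 0.017), with both high arrays above both low arrays. The share is near the background, and a wide spread of the high arrays, by which members were chosen, enlarges the error of this test. Leaving out a high array removes that spread by construction and takes the remaining one to vary like the low pair. The value of the array that remains was itself used to choose the members. Any fit without 1 array has a group of 1 array, so nothing is read from the count of members past the threshold in such fits. H23 minus the mean of the low arrays was 3.28 and 3.20 for the Lgals1 probe sets, -3.22 for Cd74 and -0.06 for Mras. H27 minus that mean was 1.84 and 2.19 for Lgals1, -1.19 for Cd74 and -1.10 for Mras.

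Some members also differed between the low switching subclones. The median absolute difference between L25 and L27 was 0.448 over the members and 0.126 over all bright probe sets. Of the 41 members 8 differed by at least 1, against 52 of the 14454 bright probe sets (0.36%). H27 minus H23 and L25 minus L27 had the same sign in 26 members (63.4%), 17 of them higher in H27, against 49.99% of the bright probe sets. The hybridization spikes were higher in L25 (11.32) than in L27 (10.72), as they were in H27 than in H23, and all 24 probe sets for the poly-A spikes, which are added before cDNA synthesis, were higher in H27 and in L25, by 0.40 and 0.35 in the mean. The member probe sets of Malat1, Clec2i, Iglv1 and Cd52 were thus higher on the arrays with brighter spikes, though 3 other Malat1 probe sets that were higher in H27 were lower in L25 than in L27. Ly6d and the Ly6c2 and Ly6c1 probe set were higher in L25 as well, but in the high pair they were higher in H23, the array with dimmer spikes. The part of array handling in the members was not tested beyond these values.

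Lists of genes showed small shifts outside the members. Over all 8201 bright genes, with 1 probe set for each, the median of H27 minus H23 was -0.04, and 4622 were lower in H27. By 2-fold, 14 genes were higher in H27 and 10 higher in H23, which is 0.293%. Of 44 genes of DNA replication 42 were lower in H27, with a median of -0.32 and none past 2-fold. Among them were Pole2 (-0.75), a subunit of DNA polymerase epsilon, and Orc1 (-0.69), of the origin recognition complex. Of 29 mitotic genes 28 were lower in H27, with a median of -0.22, including Aurkb (-0.52), a kinase of chromosome segregation. Homologous recombination and checkpoint genes had 18 of 22 lower, with a median of -0.19. These lists hold genes that are transcribed together in dividing cells, so their genes are not separate observations, and the 2 arrays allow no test.

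Most other lists stayed near the median of all genes. Class switching and hypermutation factors had 24 of 29 lower in H27, with a median of -0.06 and differences from -0.80 to 0.38. The medians were 0.03 for 32 ribosomal proteins, 0.03 for 28 genes of the unfolded protein response and 0.02 for 16 interferon response genes. For MHC class I and the immunoproteasome 10 of 12 were lower in H27, with a median of -0.16, and for sterol and fatty acid synthesis 17 of 23, with a median of -0.11. None of the genes in these last lists was a member. In the list of B cell genes, Cd53 was the 1 member among 18 bright genes, and Pik3ap1, an adaptor of B cell receptor signalling, was lower in H27 by 0.90.

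Members were spread over the chromosomes, with few neighbours. Cd74 and Camk2a lie close together on chromosome 18, and of the 2 measured genes between them Tcof1 differed by 0.06 and Arsi by 0.31. Ly6d and Ly6e lie in the Ly6 cluster of chromosome 15 with 5 measured genes between them, all of them dim, with differences from -0.23 to 0.22. The next closest pair, Cd52 and Laptm5, is 50 measured genes apart, and its members differed in opposite directions. Beside Clec2i, the related genes BC035044 and Clec2d were higher in H27 by 0.71 and 0.32 without passing 2-fold. The 3 member genes on chromosome 14 and the 3 on chromosome 15 were all higher in H23, and the 3 on chromosome 19 were all higher in H27. Chromosomes 14, 15 and 19 hold 272, 334 and 307 bright genes, with median differences of -0.06, -0.05 and 0.04. Median differences of the bright genes of single chromosomes included -0.25 for chromosome 13, which has no member gene, and 0.18 for chromosome 3 and 0.16 for chromosome 18. Whether gene dose differs between the subclones was not tested.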

How the data were processed

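Biotin-labelled RNA of 4 subclones was measured on 1 Affymetrix array each, per the labels. The deposited values are linear intensities. RMA is named in the submitters' processing notes (background correction, normalization between arrays and summary of probes) without a version. No source used here gives the genome build of the authors. Intensities were converted to log2, and 64 of 45101 probe sets, the controls, were left out. The number of symbols of a probe set came from the platform annotation of 2016 (34945 with 1 symbol, 932 with several, 9160 with none). Of those with 1 symbol, 34741 matched the RefSeq gene table by gene identifier. For these the table supplied the gene symbol used here, the chromosome and the gene order. The platform symbol was kept for the rest.

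Members and gene lists were chosen with earlier results of these data known. Named genes were the 15 largest differences in each direction among members with 1 symbol, up to 4 members of each list, probe sets beside the threshold and neighbouring members. For the 31 lists, each gene was represented by its probe set of highest mean intensity across arrays. H27 and H23 were compared by value only. High minus low was tested with limma 3.58.1 in R 4.3.3 (lmFit and eBayes, two-sided, Benjamini-Hochberg over 45037 probe sets, threshold 0.05), and this step was tested on simulated data. With so few arrays, p-values reflect no more than the spread among subclones, which may be technical. Alternatives were other normalizations, thresholds, probe set choices, variance models, a pseudocount of 16, leaving out each array and, chosen after seeing the data, subtracting each chromosome's median. Python 3.11.15, pandas 2.3.3 and numpy 2.4.6 were used. Of the 32 member genes, 21 had a promoter in the RefSeq table.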

Additional observations from a re-analysis of the deposited data

How the results depend on the processing

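The counts of 24 members higher in H27 and 17 higher in H23 became 44 and 35 with a minimum mean of 6, 9 and 3 with a minimum difference of 1.5, and 14 and 10 with 1 probe set for each gene. The count for H23 became 11 with a minimum mean of 8, 9 without probe sets that may match several transcripts, and 11 with the chromosome median subtracted. The last setting was added once the data had been seen. It covered only probe sets with 1 symbol, whereas the 17 include members with several symbols. Members in which 1 high array stood alone, 24 in all, became 52 with a minimum mean of 6, 6 with a minimum difference of 1.5, 15 without multiple matches and 15 with 1 probe set for each gene. The 8 members whose low arrays also differed became 5, 4 and 4 under the last 3 of these. The 2 members past the limma threshold became 1 with a pseudocount of 16, and between 0 and 14 when 1 array was left out. The fits without 1 array have a group of 1 array. Leaving out a high array also removes, by construction, the spread by which members were chosen. Nothing is therefore read from the counts of these fits, in either direction. With all 4 arrays the count was 3 with a variance trend or a filter on dim probe sets, where Atf5 also passed.

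Other normalizations gave 32 members higher in H27 and 15 or 16 higher in H23. Of the 32 member genes, 31 kept a 2-fold difference after renewed quantile normalization, 32 after cyclic loess or median centring, and 29 with the pseudocount. The number was 23 with the median over the bright probe sets of a gene or with the chromosome median subtracted. None of the genes turned direction under these. Where a gene had no bright probe set besides its members, the median over probe sets kept the 2-fold difference by construction. No paired analysis was possible because each subclone has 1 array and the labels link no high switching subclone to a low switching one. With 1 array for each subclone, signal over background limits the 13 members whose dimmer high array is under 7.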

Other observations

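Below the level that defines the members, 68 probe sets with a mean under 7 in the high arrays differed 2-fold, 40 of them higher in H27 and 28 higher in H23. They were picked out after their values were seen, and at this level intensity need not follow the amount of transcript. Ebf3, of a family of transcription factors that includes the B lineage factor Ebf1, was higher in H27 on 3 probe sets, the brightest of which read 9.52 in L25, 9.39 in L27, 5.93 in H23 and 7.41 in H27. Zfhx3, a large homeobox factor, was likewise higher in H27 on 3 probe sets, by up to 1.66 (log2). Both genes were lower in the high than in the low subclones, and lowest in H23. Cpq, a carboxypeptidase, was at 7.06 in L25, 6.14 in L27, 5.10 in H23 and 7.72 in H27. Ccnd1, cyclin D1, was at 9.50, 7.505, 6.16 and 7.25, and Tnfaip3, an inhibitor of NF-kappaB signalling, at 7.14, 7.81, 5.62 and 6.98.

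In the other direction, Mgst1, another membrane-bound glutathione transferase, was at 3.54 in L25, 4.26 in L27, 7.45 in H23 and 6.08 in H27. Acsl6, a fatty acid activating enzyme, was at 4.68, 4.48, 6.50 and 5.02. Ifitm3, an interferon-induced membrane protein, was at 8.27, 8.87, 6.53 and 5.23. The largest differences among dim probe sets belonged to 2 with several symbols each. The probe set shared by Gm2832 and Gm8267 was at 6.24 in L25, 5.26 in L27, 3.45 in H23 and 7.51 in H27, and 1427346_at was at 4.76, 4.54, 4.33 and 8.47, so that H27 alone was bright.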
